A study of Homo sapiens with 4 samples.

Results

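The enzymes of glycolysis and the wider transcriptional response to hypoxia were examined in human multiple myeloma cells in which MIF had been lowered. The list held 38 genes: 17 enzymes from hexokinase to lactate dehydrogenase, 3 regulators of flux, 4 transporters of glucose or lactate, and 14 other genes of the hypoxia response. Members were matched by gene symbol to the probe sets of a whole-transcript microarray, and where a gene had several, the brightest on average was taken. A named probe set was found for 19 of the 38, out of 14884 named genes in all. These were 9 enzymes and 10 other hypoxia-response genes, with 0 regulators and 0 transporters. The other 19 were not analysed here: PFKL, PFKM, PFKP, ALDOA, ALDOC, ENO1, ENO2 and PKM among the enzymes, PFKFB3, PFKFB4 and PDK1, SLC2A1, SLC2A3, SLC16A1 and SLC16A3, and CA9, P4HA1, P4HA2 and HIF1A itself.

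RNA came from ARP-1 and MM.1S, human lines established from multiple myeloma, in which antibody-secreting plasma cells become malignant. MIF-KO cells carried a lentivirus with a short hairpin RNA against MIF, and CTR-KO cells carried a control hairpin. GFP+ cells were sorted in both conditions, so all 4 arrays come from infected, sorted cells. A hairpin lowers a transcript without removing its gene, and KO therefore stands for a knockdown. There was 1 array per line and condition, giving n = 2 arrays per condition, and no label speaks of independent cultures. Arrays are called by their titles. For the ARP-1 pair, however, title and description contradict each other on the condition, so every direction given for ARP-1 depends on the titles, and values with these arrays exchanged or left out are given with the results. The measured level of MIF was lower in MIF-KO in both lines by the titles, and would be higher in MIF-KO ARP-1 by the descriptions.

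Glycolysis turns glucose into pyruvate in the cytosol. Lactate dehydrogenase passes electrons freed by the pathway to pyruvate, which becomes lactate, so that the pathway can run without oxygen. Cells sense oxygen through prolyl hydroxylases of the EGLN family, which mark the transcription factor HIF-1 alpha for destruction. When oxygen is short HIF-1 accumulates and raises genes of glucose uptake, glycolysis, vessel growth and mitochondrial removal. MIF, a secreted cytokine, is itself known as a HIF-1 target, and its protein has been tied to the stability of HIF-1 alpha. Myeloma cells grow in the bone marrow, a tissue poor in oxygen, and are known for high glycolytic flux. No label speaks of low oxygen in these cultures.

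The 4 arrays had median probe set intensities between 13.1 and 13.3. MIF had an intensity of 541 on MIF-KO ARP-1 and 1092 on CTR-KO ARP-1, and of 405 on MIF-KO MM.1S and 1012 on CTR-KO MM.1S. These are log2 differences of -1.01 and -1.32, and by the descriptions the ARP-1 difference would be 1.01. Of 9 plasma cell markers 6 were named, and all 6 lay above the median level of genes, led by the transcription factor IRF4 at 3579 to 4380 over the arrays. Their summed intensity was 6821 on MIF-KO ARP-1 and 5780 on CTR-KO ARP-1, and 5896 on MIF-KO MM.1S and 6004 on CTR-KO MM.1S. IRF4 makes up most of this sum, and single markers ran against it: SDC1 had 184 on MIF-KO ARP-1 and 471 on CTR-KO ARP-1, and 471 on MIF-KO MM.1S and 337 on CTR-KO MM.1S. CD38 had 41.8 on MIF-KO ARP-1 and 113 on CTR-KO ARP-1, and 56.2 on MIF-KO MM.1S and 40.98 on CTR-KO MM.1S. The part of these marker differences in the results was not tested. Among markers of other cells, 2 of 6 T cell, 3 of 4 monocyte and 3 of 4 epithelial genes were named, and of these CD8A (34.0 to 52.1) and KRT18 (161 to 203) lay above that level. Below it lay KRT8 (28.1 to 35.5), CSF1R (18.6 to 23.7) and CD4 (17.5 to 20.4), while CD14, LYZ and EPCAM lay between 6.99 and 10.2. No stromal or red cell marker was named. Tests used the 7442 genes whose mean reached the midpoint of all gene means (4.97, log2). All 9 enzymes and 8 of the 10 hypoxia-response genes were among these 7442. BNIP3 and EGLN3 were not, being low on every array.

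The hypoxia-response genes differed more between the arrays than the enzymes. In ARP-1 the hypoxia-response genes were higher in MIF-KO, by 1.45-fold to 2.65-fold for the 8 above the filter, with VEGFA, ADM, NDRG1 and MXI1 more than 2-fold apart. The enzymes of the same cells differed less, from 0.63 to 1.34 times their control. In MM.1S the hypoxia-response genes lay on the other side, with 7 of those 8 lower in MIF-KO by at most 1.60-fold, and the enzymes differed little. By mean level GAPDH, LDHA and TPI1 lay at percentiles 77.7, 74.1 and 65.4 of all named genes. How closely each probe set follows its RNA was not tested. In bulk RNA, fewer cells that express a gene and less of its RNA per cell cannot be told apart. With 1 array per line and condition these differences carry no error and were not tested within a line.

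**Figure D1:**
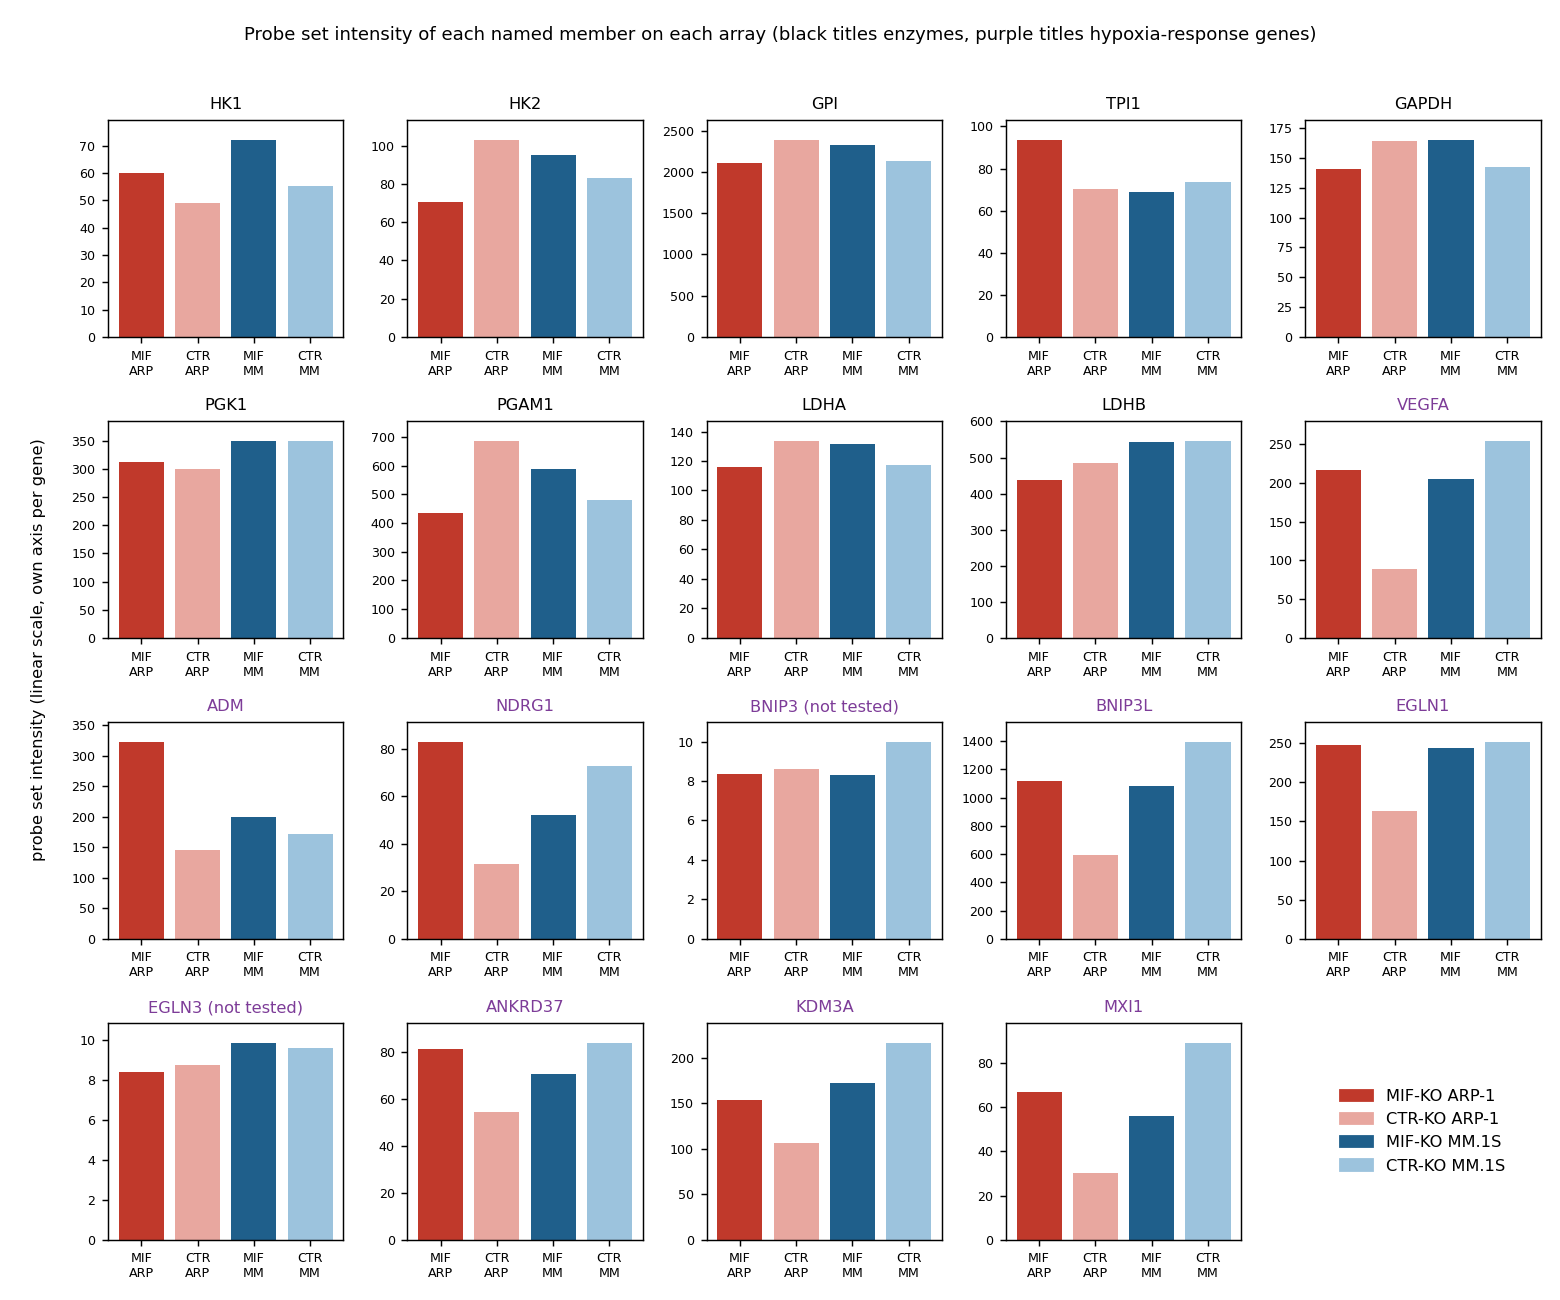
Probe set intensity (linear scale, an axis per gene starting at 0) of the 19 named members on the MIF-KO and CTR-KO arrays of ARP-1 and MM.1S, with 1 bar per array. For the 8 hypoxia-response genes above the filter the CTR-KO ARP-1 bar is the lowest of the 4, while HK2, GPI, PGAM1 and LDHA are highest there.

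Hexokinases commit glucose to the cell by phosphorylating it. HK1, the widely expressed isoform, had an intensity of 59.9 on MIF-KO ARP-1 and 48.9 on CTR-KO ARP-1, and of 72.2 on MIF-KO MM.1S and 55.1 on CTR-KO MM.1S. It was the enzyme higher in MIF-KO in both lines, by 0.29 and 0.39 on the log2 scale. HK2, the inducible isoform and a classical HIF-1 target, had 70.3 on MIF-KO ARP-1 and 103 on CTR-KO ARP-1, against 95.02 on MIF-KO MM.1S and 83.1 on CTR-KO MM.1S. Its log2 difference was -0.55 in ARP-1, or 1.465-fold lower and just under the 1.5-fold mark, and 0.19 in MM.1S. The isoforms thus had opposite signs in ARP-1 and the same sign in MM.1S.

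GPI, which converts glucose 6-phosphate to fructose 6-phosphate, had 2102 on MIF-KO ARP-1 and 2388 on CTR-KO ARP-1, and 2330 on MIF-KO MM.1S and 2130 on CTR-KO MM.1S. These are log2 differences of -0.18 and 0.13. TPI1, which interconverts the triose phosphates, had 93.7 on MIF-KO ARP-1 and 70.1 on CTR-KO ARP-1, and 68.8 on MIF-KO MM.1S and 73.4 on CTR-KO MM.1S. Its ARP-1 difference of 0.42 was the largest positive one among the enzymes there. GAPDH, the oxidising step of the pathway, had 141 on MIF-KO ARP-1 and 164 on CTR-KO ARP-1, and 165 on MIF-KO MM.1S and 142 on CTR-KO MM.1S. Its ARP-1 difference was -0.22 and its MM.1S difference 0.22.

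PGK1, which makes ATP from bisphosphoglycerate and is often used as a marker of HIF-1 activity, was nearly level in both lines. It had 312 on MIF-KO ARP-1 and 299.9 on CTR-KO ARP-1, and 349.8 on MIF-KO MM.1S and 350.2 on CTR-KO MM.1S, log2 differences of 0.058 and -0.0017. PGAM1 is the phosphoglycerate mutase. The gene lies on chromosome 10, but all 20 named probe sets nearest in number to the one annotated to it belong to genes of chromosome 12, while for each of the other 18 members all 20 neighbours lie on the gene's own chromosome. Whether the probe set measures PGAM1 or one of its pseudogenes was not tested, and its values are those of the annotated probe set. Its intensity was 435 on MIF-KO ARP-1 and 687 on CTR-KO ARP-1, 1.58-fold lower in MIF-KO, and 588 on MIF-KO MM.1S and 482 on CTR-KO MM.1S. The log2 differences were -0.66 and 0.29. PGAM1 was the 1 of 9 enzymes at least 1.5-fold lower in MIF-KO ARP-1, where 11.9% of all tested genes were, and 0 of 9 were that much higher, against 10.9%. Without it 0 of 8 enzymes passed in either direction in ARP-1. In MM.1S 0 of 9 enzymes passed 1.5-fold in either direction, against 5.12% of tested genes higher and 2.89% lower.

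The lactate dehydrogenase subunits close the list of enzymes. LDHA, the subunit that favours lactate formation and a HIF-1 and MYC target, had 116 on MIF-KO ARP-1 and 134 on CTR-KO ARP-1, and 131 on MIF-KO MM.1S and 117 on CTR-KO MM.1S. LDHB, the subunit abundant in heart, had 437 on MIF-KO ARP-1 and 486 on CTR-KO ARP-1, and 543 on MIF-KO MM.1S and 547 on CTR-KO MM.1S. The ARP-1 difference of LDHA was -0.21 and that in MM.1S 0.16, and LDHB had -0.15 and -0.0099. Several enzymes have processed pseudogenes that can share probe signal: RefSeq names 65 after GAPDH, 13 after PGAM1, 6 after LDHA, 4 after TPI1, 3 after LDHB and 2 after PGK1. Whether the other probe sets are free of them was not tested either.

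HIF-1 binds a short core in DNA, ACGTG or GCGTG. The 250 bases before each start site in the RefSeq promoter table (GRCh38.p14) were searched for both cores on both strands. Any copy of CACGTG, the E-box read by MYC and clock factors, holds ACGTG as well. The promoter of LDHA is shown as a glycolytic promoter with several cores, from a gene that differed little. Capitals mark the cores.
LDHA, chr11:18394313-18394562, plus strand: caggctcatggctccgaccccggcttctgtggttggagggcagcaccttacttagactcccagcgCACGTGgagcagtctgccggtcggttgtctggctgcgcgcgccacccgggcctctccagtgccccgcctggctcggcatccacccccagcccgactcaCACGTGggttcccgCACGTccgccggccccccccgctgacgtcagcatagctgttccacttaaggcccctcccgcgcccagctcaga
LDHA has cores starting 185, 184, 87, 86 and 73 bases before the start shown, of which the overlapping pairs form E-boxes. This is 1 of its 2 start sites in the table, and the window of the other holds 1 core, 123 bases before that start.

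VEGFA, the growth factor of blood vessels and the best known secreted target of HIF-1, had an intensity of 217 on MIF-KO ARP-1 and 89.4 on CTR-KO ARP-1. On the MM.1S arrays it had 206 in MIF-KO and 255 in CTR-KO. It was 2.43-fold higher in MIF-KO ARP-1 and 1.24-fold lower in MIF-KO MM.1S, and the CTR-KO ARP-1 array was the low one of the 4. ADM, a peptide hormone that widens vessels, had 323 on MIF-KO ARP-1 and 145 on CTR-KO ARP-1, and 199 on MIF-KO MM.1S and 171 on CTR-KO MM.1S. ADM was the hypoxia-response gene above the filter that was higher in MIF-KO in both lines, by 1.15 and 0.22 on the log2 scale. NDRG1, an intracellular protein induced by hypoxia and iron shortage, had 82.9 on MIF-KO ARP-1 and 31.3 on CTR-KO ARP-1, and 52.1 on MIF-KO MM.1S and 72.5 on CTR-KO MM.1S. Its log2 difference of 1.41 in ARP-1 was the widest of the 19 members, and in MM.1S it differed by -0.48.

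BNIP3 and BNIP3L are mitochondrial proteins that recruit the autophagy machinery. BNIP3L had 1118 on MIF-KO ARP-1 and 591 on CTR-KO ARP-1, and 1083 on MIF-KO MM.1S and 1395 on CTR-KO MM.1S, log2 differences of 0.92 and -0.37. BNIP3, one of the most inducible HIF-1 targets in many cells, had 8.34 on MIF-KO ARP-1 and 8.59 on CTR-KO ARP-1, and 8.32 on MIF-KO MM.1S and 9.996 on CTR-KO MM.1S. Those values lie below the median probe set of every array, and BNIP3 was not tested. RefSeq names 46 pseudogenes after BNIP3.

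EGLN1 and EGLN3 are the oxygen-sensing prolyl hydroxylases that HIF-1 itself induces. EGLN1 had 247 on MIF-KO ARP-1 and 163 on CTR-KO ARP-1, and 244 on MIF-KO MM.1S and 252 on CTR-KO MM.1S. At 1.51-fold in ARP-1 it was the member just past the 1.5-fold mark, and with 16 added to every intensity it no longer passed. In MM.1S its log2 difference was -0.047. EGLN3, usually the more strongly induced of the pair, had 8.38 on MIF-KO ARP-1 and 8.74 on CTR-KO ARP-1, and 9.85 on MIF-KO MM.1S and 9.58 on CTR-KO MM.1S. Like BNIP3 it stayed below the median probe set of every array.

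KDM3A, a histone H3 lysine 9 demethylase, had 154 on MIF-KO ARP-1 and 106 on CTR-KO ARP-1, and 172 on MIF-KO MM.1S and 216 on CTR-KO MM.1S. ANKRD37, a small ankyrin repeat protein known mainly as a HIF-1 target, had 81.3 on MIF-KO ARP-1 and 54.3 on CTR-KO ARP-1, and 70.3 on MIF-KO MM.1S and 83.9 on CTR-KO MM.1S. They were 1.449-fold and 1.496-fold higher in MIF-KO ARP-1, just under the 1.5-fold mark, and differed by -0.33 and -0.25 in MM.1S. MXI1, a repressor that competes with MYC for its partner MAX, had 66.7 on MIF-KO ARP-1 and 30.4 on CTR-KO ARP-1, and 55.9 on MIF-KO MM.1S and 89.3 on CTR-KO MM.1S. MXI1 was the 1 member past 1.5-fold in opposite directions in both lines, as were 4.88% of tested genes, at 1.13 in ARP-1 and -0.68 in MM.1S. A further probe set of MXI1 gave 0.51 and -0.21, the same signs at smaller size, and with the mean of both probe sets, or with 16 added to every intensity, MXI1 no longer passed 1.5-fold in MM.1S.

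**Figure D2:**
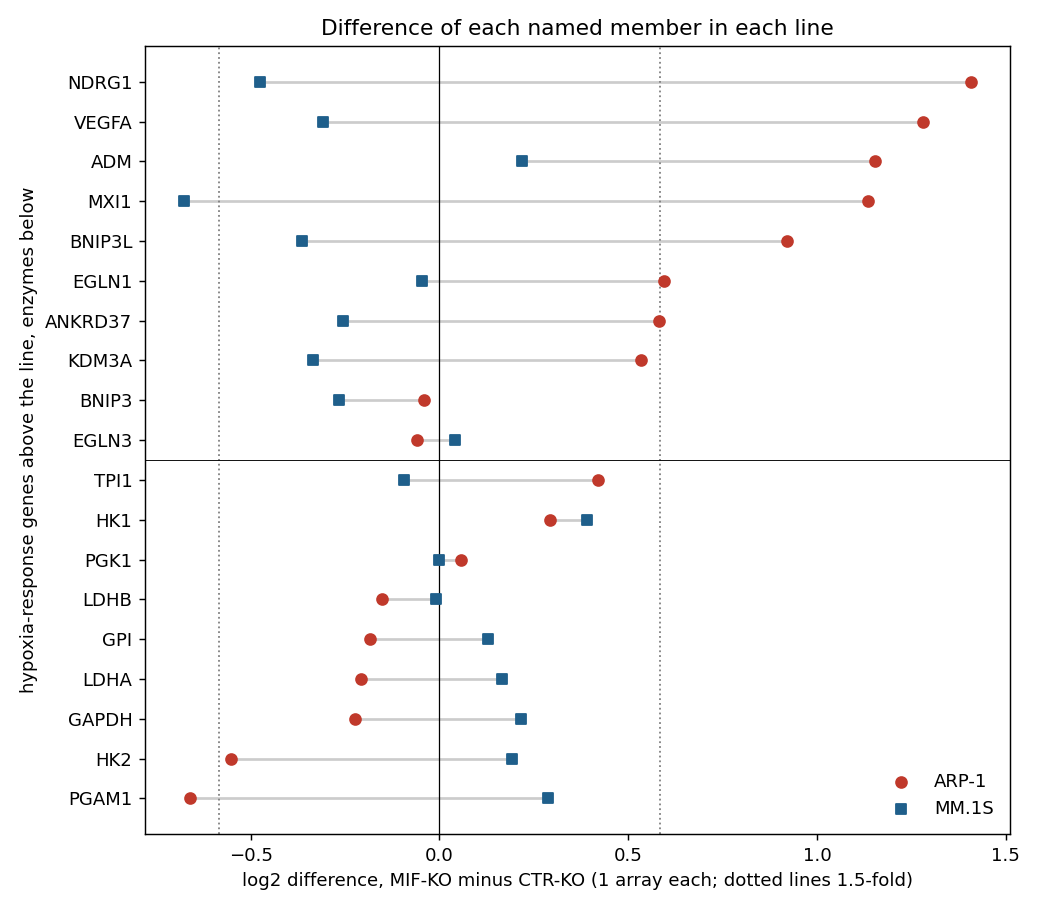
Log2 difference, MIF-KO minus CTR-KO, of each named member in ARP-1 (circles) and MM.1S (squares), from 1 array each, with dotted lines at 1.5-fold. The hypoxia-response genes spread to the right in ARP-1 and mostly to the left in MM.1S, while all enzymes but PGAM1 stay inside the lines.

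The promoters of ADM, MXI1, ANKRD37 and EGLN1 are shown because these genes were higher together in MIF-KO ARP-1. Capitals mark ACGTG and GCGTG on either strand.
ADM, chr11:10304823-10305072, plus strand: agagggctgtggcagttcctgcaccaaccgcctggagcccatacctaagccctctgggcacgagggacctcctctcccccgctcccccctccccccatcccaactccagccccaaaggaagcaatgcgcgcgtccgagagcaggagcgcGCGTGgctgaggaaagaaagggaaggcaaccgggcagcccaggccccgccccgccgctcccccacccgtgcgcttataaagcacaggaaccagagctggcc
MXI1, chr10:110209981-110210230, plus strand: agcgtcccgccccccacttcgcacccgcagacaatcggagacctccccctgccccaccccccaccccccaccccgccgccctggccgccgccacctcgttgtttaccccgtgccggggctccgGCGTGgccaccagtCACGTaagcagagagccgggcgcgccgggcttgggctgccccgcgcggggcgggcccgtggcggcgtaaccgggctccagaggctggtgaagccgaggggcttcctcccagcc
ANKRD37, chr4:185396591-185396840, plus strand: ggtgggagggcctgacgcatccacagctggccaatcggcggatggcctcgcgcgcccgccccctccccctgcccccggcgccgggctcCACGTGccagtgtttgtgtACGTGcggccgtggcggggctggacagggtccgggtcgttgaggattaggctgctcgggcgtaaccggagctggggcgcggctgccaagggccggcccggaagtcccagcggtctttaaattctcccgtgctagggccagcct
EGLN1, chr1:231422288-231422537, minus strand: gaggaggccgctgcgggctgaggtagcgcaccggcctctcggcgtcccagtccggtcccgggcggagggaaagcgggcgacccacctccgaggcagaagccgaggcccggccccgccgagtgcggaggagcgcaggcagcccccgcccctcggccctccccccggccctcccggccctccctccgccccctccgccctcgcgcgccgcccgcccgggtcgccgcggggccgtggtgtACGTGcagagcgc
ADM has 1 core, 101 bases before its start. MXI1 has cores 127 and 113 bases before the start shown, which is 1 of its 3 start sites in the table. The windows of its other starts hold 0 cores and 1 core. ANKRD37 has an E-box 162 bases before its start and a further ACGTG at 143 bases, and EGLN1 has 1 core, 13 bases before its start.

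The cores occurred in both groups. ACGTG or GCGTG was present for 6 of the 7 hypoxia-response genes with an entry in the promoter table, against 7 of 9 enzymes. The same held for 65.5% of the 5948 tested genes in the table and 47.4% of all 27305 genes of the table. ACGTG alone was present for 4 of 7 hypoxia-response genes and 6 of 9 enzymes, against 28.8% of tested genes. CACGTG was present for 2 of 7 (BNIP3 and ANKRD37) and 3 of 9 (HK2, GAPDH and LDHA), against 11.7%. A gene with several start sites counted once if any window held the core. A match is a description of letters and not a binding site. VEGFA, NDRG1 and BNIP3L had no entry in the table.

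By their medians, the hypoxia-response genes and the enzymes differed in sign in both lines. Over the 10 named hypoxia-response genes the median log2 difference was 0.76 in ARP-1 and -0.29 in MM.1S. Over the 9 enzymes it was -0.18 in ARP-1 and 0.16 in MM.1S. All tested genes had medians of -0.03 and 0.04. The hypoxia-response median minus the enzyme median was 0.94 in ARP-1 and -0.45 in MM.1S. At 1.5-fold, 6 of the 8 tested hypoxia-response genes (VEGFA, ADM, NDRG1, BNIP3L, EGLN1 and MXI1) were higher in MIF-KO ARP-1 (10.9% of all tested genes) and 0 were lower (11.9%). In MM.1S 0 were higher (5.12%) and MXI1 was lower (2.89%). The members were chosen with earlier results of these arrays known, so no test was made of the groups.

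Opposite signs in the lines were common among all genes. Of the 17 tested members, 14 differed in opposite directions, and 67.6% of all tested genes did. Most hypoxia-response genes shared a pattern, and the enzymes were divided. Of the hypoxia-response genes 7 of 8 were higher in MIF-KO ARP-1 and lower in MIF-KO MM.1S, a pattern of 30.1% of tested genes, and 2 of 9 enzymes were (TPI1 and PGK1). The reverse pattern, shown by 37.5% of tested genes, held for 5 of 9 enzymes (HK2, GPI, GAPDH, PGAM1 and LDHA) and 0 of 8 hypoxia-response genes. HK1 and LDHB had the same sign in both lines.

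**Figure D3:**
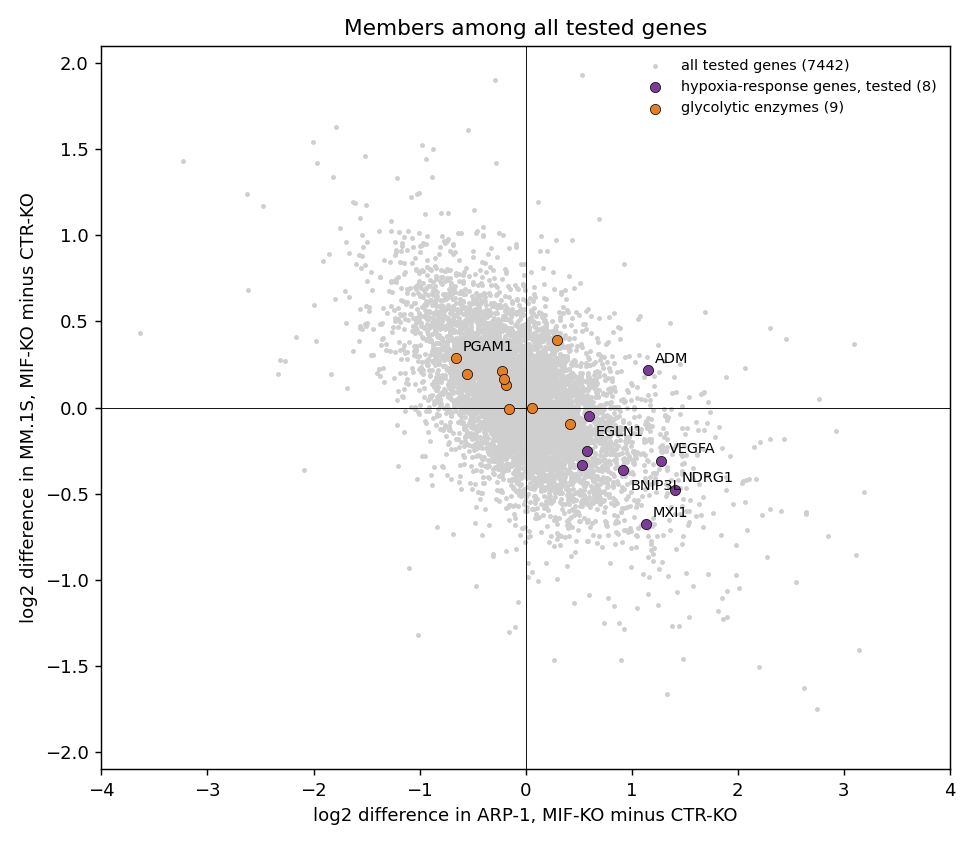
Log2 difference, MIF-KO minus CTR-KO, in ARP-1 (horizontal) against MM.1S (vertical) for the 7442 tested genes (grey), the 8 tested hypoxia-response genes (purple) and the 9 enzymes (orange). The hypoxia-response genes lie to the right, 7 of 8 below 0 in MM.1S, within the sloping cloud of all genes.

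The hypoxia-response genes were lowest on CTR-KO ARP-1. With each gene's own mean over the 4 arrays subtracted, the median of the 10 hypoxia-response genes was 0.17 on MIF-KO ARP-1 and -0.51 on CTR-KO ARP-1, and 0.05 on MIF-KO MM.1S and 0.30 on CTR-KO MM.1S. All 8 tested ones were lowest on CTR-KO ARP-1, as were 2 of 9 enzymes (HK1 and PGK1) and 32.5% of tested genes. The highest array was CTR-KO MM.1S for 6 of the 8, against 23% of tested genes, and MIF-KO ARP-1 for ADM and NDRG1. The enzymes had medians of -0.10 on MIF-KO ARP-1 and 0.10 on CTR-KO ARP-1, and of 0.11 on MIF-KO MM.1S and -0.07 on CTR-KO MM.1S. CTR-KO ARP-1 was the highest array for 4 of 9 enzymes (HK2, GPI, PGAM1 and LDHA), against 32.1% of tested genes, and MIF-KO MM.1S for HK1 and GAPDH, against 22.3%. Without the ARP-1 arrays only the MM.1S differences remain, and the ARP-1 array that stands apart is 1 of the 2 whose descriptions and titles disagree.

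**Figure D4:**
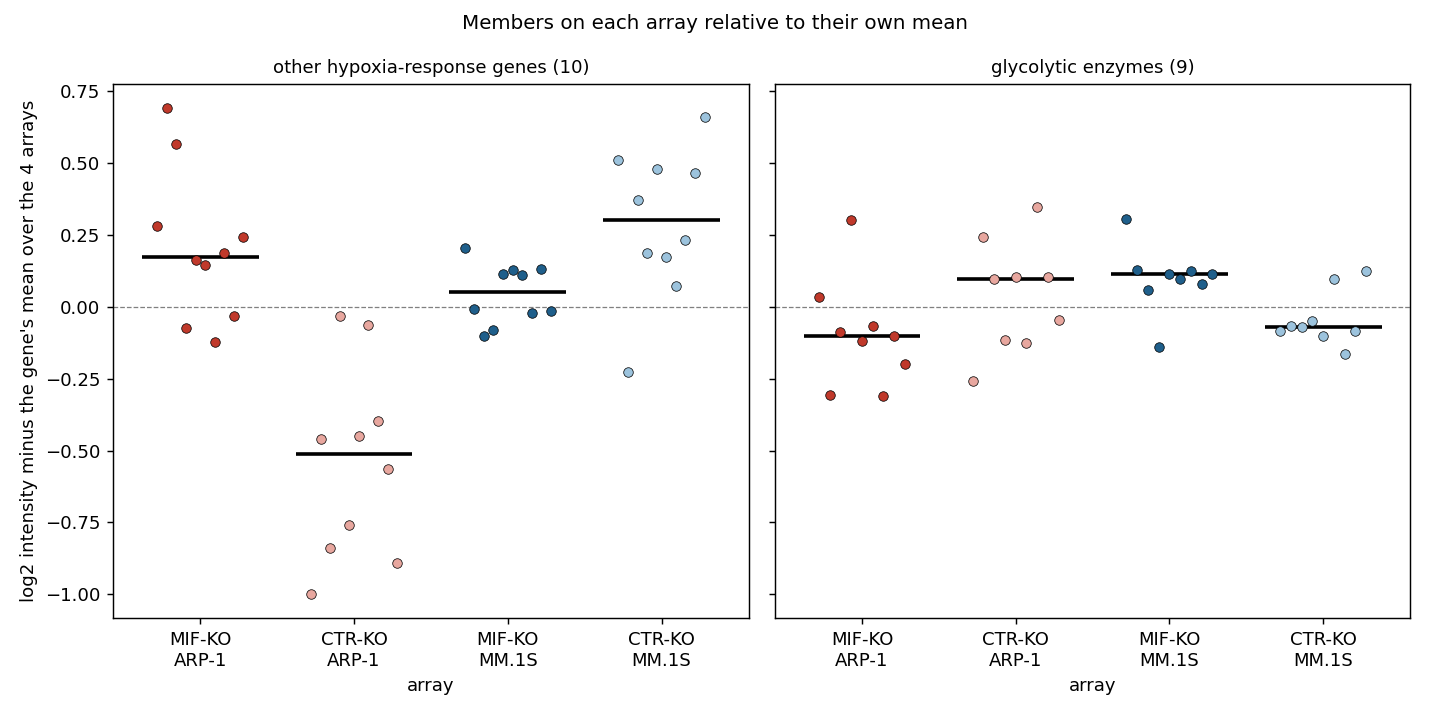
Log2 intensity of each named member minus its own mean over the 4 arrays, for the 10 hypoxia-response genes (left) and the 9 enzymes (right), with 1 point per gene and a black bar at the median. The hypoxia-response median is -0.51 on CTR-KO ARP-1 and between 0.05 and 0.30 on the other arrays, while the enzyme medians stay between -0.10 and 0.11.

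Over both lines no member passed. With line and condition as terms, limma gave 0 of 7442 genes an adjusted p under 0.05 (0%), and 29 had an unadjusted p below 0.05 (0.39%), with 0 of the 17 tested members among them. The targeted gene MIF was not called either, at -1.17 (SE 0.29, limma unadjusted p = 0.0104, adjusted p = 0.99995). With 0 genes called, MIF included, the fit cannot show that a member was unchanged. ADM had the smallest p of the members, with a mean log2 difference of 0.69 (SE 0.36, n = 2 lines, 95% interval from -0.25 to 1.62, limma unadjusted p = 0.118, adjusted p = 0.99995). VEGFA had 0.49 (95% interval from -0.70 to 1.67), NDRG1 0.47 (from -0.77 to 1.70) and MXI1 0.23 (from -0.97 to 1.43). HK1 had the narrowest interval of the enzymes, at 0.34 (from -0.26 to 0.94), and PGAM1 had -0.19 (from -1.11 to 0.74). The error of this fit joins the disagreement of the lines (1 degree of freedom) with a prior from all tested genes (3.99). Intervals were therefore wide even where the lines agreed: PGK1, nearly level in both, had 0.03 (95% interval from -0.74 to 0.80). The intervals of VEGFA, NDRG1, MXI1, PGAM1 and PGK1 include changes of more than 1.5-fold in both directions. The same held for further members, such as HK2 (from -0.98 to 0.62). With the ARP-1 conditions taken from the descriptions instead, 401 genes were called (5.39%), among them MXI1 (mean -0.90, limma adjusted p = 0.0322) and NDRG1 (mean -0.94, limma adjusted p = 0.0468), both lower in MIF-KO, but that labelling also puts MIF 1.01 higher (log2) in MIF-KO ARP-1.

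MM.1S and ARP-1 were then compared with each other. In CTR-KO cells 7 of the 8 tested hypoxia-response genes were at least 1.5-fold higher in MM.1S (11.2% of tested genes), with MXI1 at 1.55, VEGFA at 1.51, BNIP3L at 1.24, NDRG1 at 1.21 and KDM3A at 1.03 on the log2 scale. This comparison shares the CTR-KO ARP-1 array, lowest for all 8, with the ARP-1 differences above and is not independent of them. Against MIF-KO ARP-1 instead, CTR-KO MM.1S differed by -0.92 (ADM) to 0.495 (KDM3A) for these 8. In MIF-KO cells 0 of 8 were that much higher in MM.1S (8.22%), and ADM at -0.70 and NDRG1 at -0.67 were lower (4.37%). The median over the 10 named genes was -0.06 in MIF-KO cells and 0.83 in CTR-KO cells. No enzyme differed 1.5-fold between the lines in either condition (in CTR-KO cells 11.1% of tested genes were that much lower in MM.1S), with enzyme medians of 0.23 in MIF-KO cells and -0.16 in CTR-KO cells. Over both conditions limma called 0 of 7442 genes between the lines (0%), 87 had an unadjusted p below 0.05 (1.17%), and 0 of these were members. KDM3A came nearest, at 0.60 (SE 0.35, limma unadjusted p = 0.1497, adjusted p = 0.9999). Among all tested genes, 8.22% were 1.5-fold higher and 4.37% lower in MM.1S in MIF-KO cells, and 11.2% and 11.1% in CTR-KO cells. Between MIF-KO and CTR-KO these shares were 10.9% and 11.9% in ARP-1, and 5.12% and 2.89% in MM.1S. By these shares the lines were no further apart than the ARP-1 arrays were from each other. Why the arrays did not separate more by line was not tested.

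Further genes of the pathway came from lists that were also chosen with earlier results known. Their counts stand beside the shares of all tested genes past 1.5-fold, which in MIF-KO ARP-1 were 10.9% higher and 11.9% lower, and in MIF-KO MM.1S 5.12% higher and 2.89% lower. Of 29 further HIF targets 14 were tested, and in ARP-1 5 passed 1.5-fold upward (10.9%) and 1 downward (11.9%), with a median of 0.42, while in MM.1S 0 passed it upward (5.12%) and 1 downward (2.89%), with a median of -0.12. STC2, a secreted glycoprotein, had 415 on MIF-KO ARP-1 and 66.6 on CTR-KO ARP-1, and 264 on MIF-KO MM.1S and 402 on CTR-KO MM.1S. DDIT4, an inhibitor of mTORC1, had 948 on MIF-KO ARP-1 and 249 on CTR-KO ARP-1, and 996 on MIF-KO MM.1S and 1210 on CTR-KO MM.1S. The lipoprotein receptor VLDLR differed by 1.14 and -0.12. Heme oxygenase HMOX1 ran the other way in ARP-1, at -1.01, and had 0.10 in MM.1S.

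The proteins that run the HIF response differed less. Of 15 listed 6 were tested, with medians of -0.10 in ARP-1 and 0.07 in MM.1S, and 1 was at least 1.5-fold lower in MIF-KO ARP-1, against 11.9% of tested genes. That gene was COPS5, the signalosome subunit known to bind MIF, with 110 on MIF-KO ARP-1 and 192 on CTR-KO ARP-1, and 179 on MIF-KO MM.1S and 176 on CTR-KO MM.1S. EPAS1, which encodes HIF-2 alpha, differed by -0.54 and 0.16. ARNT, the partner of both HIF alpha subunits, differed by 0.30 and -0.0025. The coactivator CREBBP differed by 0.04 and -0.31.

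Medians of the pentose phosphate and citric acid cycle genes had the signs of the enzyme medians, though single genes did not all share them. Of 6 tested pentose phosphate genes 3 passed 1.5-fold downward in ARP-1 and 2 upward in MM.1S, against 11.9% and 5.12% of tested genes, with medians of -0.46 and 0.24. Transketolase TKT had 484 on MIF-KO ARP-1 and 941 on CTR-KO ARP-1, and 863 on MIF-KO MM.1S and 797 on CTR-KO MM.1S. The isomerase RPIA differed by -0.97 and 0.65, TALDO1 by 0.01 and 0.36, and RPE by -0.16 and -0.05. Of 12 tested genes of pyruvate oxidation and the citric acid cycle 5 passed it downward in ARP-1 (11.9%) and 1 upward in MM.1S (5.12%), with medians of -0.23 and 0.34. Among them the dehydrogenase subunits OGDH differed by -0.65 and 0.09, IDH3B by -0.70 and 0.29 and DLD by 0.04 and 0.44, and the pyruvate carrier MPC2 by 0.24 and 0.22.

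Genes of gluconeogenesis and glycogen had no common sign. Of 7 tested, 1 passed 1.5-fold upward (10.9%) and 2 downward (11.9%) in ARP-1, and 1 passed it upward in MM.1S (5.12%). PCK2, the mitochondrial phosphoenolpyruvate carboxykinase, had 313 on MIF-KO ARP-1 and 72.5 on CTR-KO ARP-1, and 225 on MIF-KO MM.1S and 300.5 on CTR-KO MM.1S. Pyruvate carboxylase PC differed by -0.94 and 0.39, and the phosphoglucomutases PGM2 by -0.84 and 0.64 and PGM1 by 0.12 and 0.05. Of the 3 tested genes among other isoforms and regulators of glycolysis, 0 passed 1.5-fold in either line. The monocarboxylate transporter chaperone BSG differed by -0.04 and -0.17, the fructose bisphosphatase TIGAR by 0.07 and -0.20, and the muscle mutase PGAM2 by 0.03 and -0.05. In these 6 lists limma called 0 genes over both lines.

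**Figure D5:**
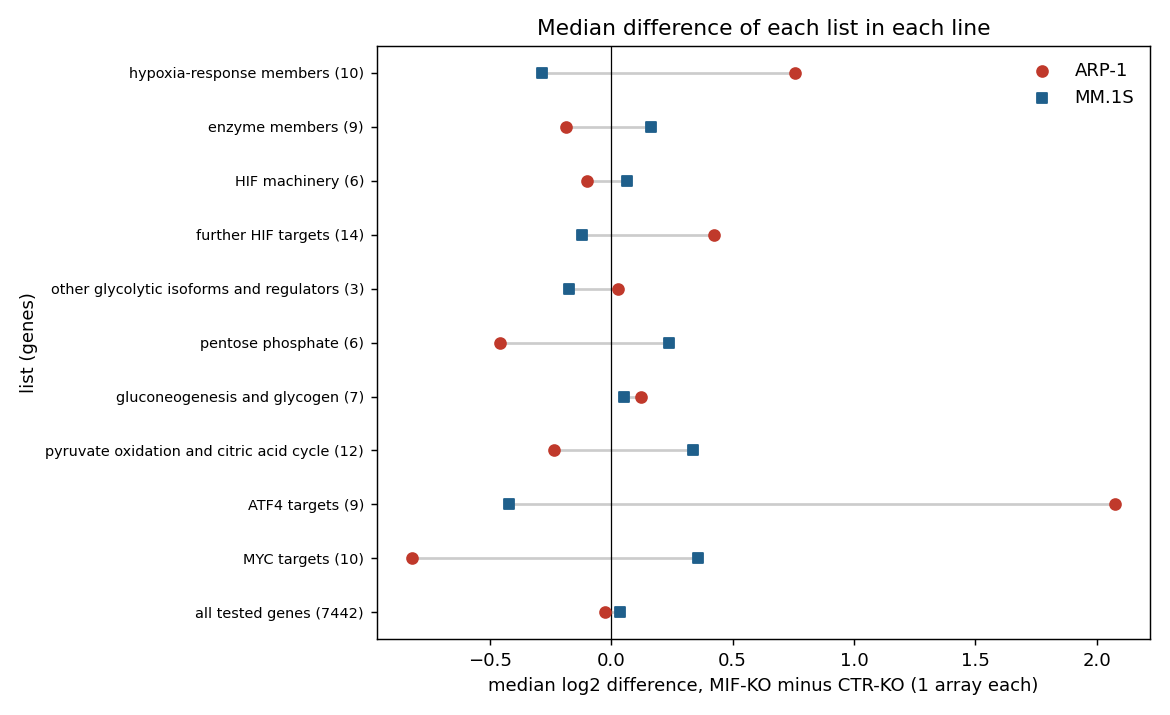
Median log2 difference, MIF-KO minus CTR-KO, of each list in ARP-1 (circles) and MM.1S (squares), from 1 array each, with the number of genes in brackets. Further HIF targets lie on the side of the hypoxia-response members and the pentose phosphate genes on the side of the enzymes, with ATF4 and MYC targets farthest out.

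Other programmes differed on the same arrays. ATF4 is the transcription factor of amino acid and endoplasmic reticulum stress, and all 9 of its tested targets passed 1.5-fold upward in ARP-1 (10.9% of tested genes; median 2.08), while 3 passed it downward in MM.1S (2.89%; median -0.42). Centred on gene means, their median was 0.52 on MIF-KO ARP-1 and -1.54 on CTR-KO ARP-1, and 0.36 on MIF-KO MM.1S and 0.71 on CTR-KO MM.1S. VEGFA, DDIT4, STC2, VLDLR and PCK2 are known as ATF4 targets as well as by the lists they stand in here. Among 10 tested MYC targets, 7 passed 1.5-fold downward in ARP-1 (11.9%; median -0.82) and 2 upward in MM.1S (5.12%; median 0.36), and limma called 0 genes of either list over both lines. The part of either programme in the differences of the hypoxia-response genes and the enzymes was not tested.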

How the data were processed

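The deposited table held probe set intensities on a linear scale (2.74 to 15935), although the design had taken them to be log2. Per the submitters' processing notes, RMA and limma were used by the authors, with no version or role. Background step, annotation and build: not given in the sources used here. Log2 was taken with no pseudocount. The platform annotation gave 1 symbol for 16098 of 53617 probe sets, and all 16098 matched RefSeq by Entrez ID. For the 779 genes with several probe sets, the one with the highest mean was used.

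The 7442 genes whose mean reached the median of gene means (4.97, log2) were fitted by limma (version 3.58.1, R 4.3.3) on line and condition, with trended eBayes and Benjamini-Hochberg adjustment over all tested genes. The fit has 1 residual degree of freedom, to which the prior added 3.99. The cell line is the pairing, from the labels. Same-line deviations from the condition means correlated at r = -0.37 across genes. A negative value means that line differences tended to reverse between the conditions, so the values do not bear out this pairing. The fit without the cell line term also gave 0 calls for condition. RMA gives no depth, so the number of arrays limits precision. The p-values rest on the disagreement of the lines and the prior from all tested genes, and not on repeated cultures of a line. That disagreement may be technical. Members and lists were chosen with earlier results of these data known. All members could be named with values; further lists were named by up to 4 tested genes of largest absolute mean difference. Alternatives covered the filter, scaling, offset, probe set choice, cell line term, trend, and the ARP-1 arrays exchanged or left out.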

Additional observations from a re-analysis of the deposited data

Results flagged for a closer look

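For 14 of the 17 tested members the MIF-KO minus CTR-KO difference had one sign in ARP-1 and the other in MM.1S, as it had for 67.6% of all tested genes. The difference between the lines was not tested, since each line has 1 array per condition. Log2 differences in ARP-1 and then MM.1S were 1.28 and -0.31 for VEGFA, 1.41 and -0.48 for NDRG1, 0.92 and -0.37 for BNIP3L, and 0.59 and -0.047 for EGLN1. They were 0.58 and -0.25 for ANKRD37, 0.53 and -0.33 for KDM3A, and 1.13 and -0.68 for MXI1. Among the enzymes they were -0.55 and 0.19 for HK2, -0.18 and 0.13 for GPI, 0.42 and -0.093 for TPI1, and -0.22 and 0.22 for GAPDH. They were 0.058 and -0.0017 for PGK1, -0.66 and 0.29 for PGAM1, and -0.21 and 0.16 for LDHA. MXI1 was the member at least 1.5-fold apart in both lines in opposite directions, as were 4.88% of tested genes.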

How the results depend on the processing

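With 1 array per line and condition, every difference rests on single arrays. The scaling of the arrays, the added 16 and the mean of probe sets left the sign of all 19 members in each line. Filter, scaling, offset, probe set choice, the fit with no replicate block and eBayes without a trend all gave 0 calls for condition and for line. The choice that mattered was the ARP-1 labels. By the titles the log2 difference of MIF was -1.01 for ARP-1 and -1.32 for MM.1S, and under the exchange it would be 1.01 higher in MIF-KO ARP-1. With those arrays exchanged 401 genes were called, since a difference of opposite sign in the lines then counts as shared. The enzyme medians became 0.18 in ARP-1 and 0.16 over both lines, and the hypoxia-response medians -0.76 and -0.45. Over both lines the medians were -0.02 for enzymes and 0.25 for hypoxia-response genes, and ranged from -0.18 to 0.16 and from -0.29 to 0.76 as either line was left out. Under that exchange the mean differences of these members had the other sign: HK2 0.37, GPI 0.16, TPI1 -0.26, GAPDH 0.22, PGK1 -0.030, PGAM1 0.47, LDHA 0.19, LDHB 0.071, VEGFA -0.79, ADM -0.47, NDRG1 -0.94, BNIP3L -0.64, EGLN1 -0.32, ANKRD37 -0.42, KDM3A -0.43 and MXI1 -0.90. Left out in turn, the lines gave ranges that spanned 0: HK2 -0.55 to 0.19, GPI -0.18 to 0.13, TPI1 -0.093 to 0.42, GAPDH -0.22 to 0.22, PGK1 -0.0017 to 0.058, PGAM1 -0.66 to 0.29, LDHA -0.21 to 0.16, VEGFA -0.31 to 1.28, NDRG1 -0.48 to 1.41, BNIP3L -0.37 to 0.92, EGLN1 -0.047 to 0.59, ANKRD37 -0.25 to 0.58, KDM3A -0.33 to 0.53 and MXI1 -0.68 to 1.13. Without PGAM1, left out after seeing the data, the enzyme medians were -0.17 in ARP-1, 0.15 in MM.1S and -0.012 over both lines. The stricter filter kept 10 members. Regulators and transporters had no named probe set, so counting them with the enzymes gave no value. With a line left out no residual degree of freedom remains, so those values have no test.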
